A study of Mus musculus with 4 samples.

Results

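The genes described here are 10 cartilage genes: the transcription factors Sox9, Sox5 and Sox6 and the non-collagen matrix genes Acan, Comp, Prg4, Hapln1, Matn2, Matn3 and Chad. They were chosen by symbol, and each matched 1 row among the 23997 gene symbols of the deposited table. RNA was sequenced from mesenchymal stem/progenitor cells (MSPC), stromal cells of fibroblast shape grown in culture from mouse bone marrow. The 4 libraries were 2 of wild-type (WT) and 2 of Asxl1-/- cells, all on a C57BL/6 background, at passages 5 to 10, in MesenCult medium with 20% supplement, replated at 80 to 90% confluency. Asxl1 encodes a chromatin protein that partners the BAP1 deubiquitinase, and how the Asxl1-/- allele was made is not given in the sources used here. Whether a group's libraries derive from different animals or cultures is not in the labels, so the p-values reflect no more than the spread of these samples, which may be technical.

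Sox9 is the master regulator of the chondrocyte lineage, and Sox5 and Sox6 bind DNA beside it and strengthen its action on cartilage genes. Among the genes it switches on are Acan (aggrecan, the large proteoglycan that holds water in cartilage), Hapln1 (the link protein that ties aggrecan to hyaluronan) and Matn3 (a matrilin of growth plate cartilage). Marrow stromal cells can form cartilage when placed under chondrogenic conditions, and most of the matrix genes are background markers of that fate rather than of undifferentiated stroma.

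Levels are FPKM, fragment numbers scaled to transcript length and to library size, so they can be compared between genes. Asxl1 (mm10 chromosome 2, 153346139 to 153404007) had levels of 14.6 and 11.2 FPKM in WT cells and of 0.273 and 0.312 FPKM in Asxl1-/- cells, which follows the labels. Its limma log2 fold change on log2(FPKM + 1), a scale that understates the change of low genes, was -3.41. The limma adjusted p was 0.215, above the threshold of 0.05. The authors' deposited table gives a log2 fold change of -5.34 and marks it significant (Cuffdiff q = 0.00836). With 2 libraries per group a change of this size missed the limma adjusted threshold, so a gene that misses it may still differ. Between 10946 and 11359 symbols per library reached 1 FPKM. Read numbers are unknown, and the steps of low values put the relative depths between 0.956 and 1.03. All rows summed to 703730 FPKM in WT replicate 2 and to 497340 to 563749 in the other libraries. Rows under 300 bp held 40.9% of the sum in WT replicate 2 and 21.4 to 24.9% in the others. The levels given here were not rescaled for this. Of 14 stromal markers 13 and 12 reached 1 FPKM in the WT libraries and 11 in each Asxl1-/- library, and Lepr stood at 0 to 0.0426 FPKM. The 13 tested stromal markers had a median log2 fold change of -0.76, with 4 positive and 9 negative. For 6 both Asxl1-/- values were under both WT values (25.2% of all tested genes). For 2 they were above both (15.6% of all tested genes). These were Pdgfrb, at 86.9 and 49.2 FPKM in WT and 103 and 135 in Asxl1-/-, and Cxcl12, at 641 and 744 against 1297 and 947. None passed the limma adjusted threshold, and 3 were lower at an unadjusted p under 0.05 (5.41% of all tested genes): the homeobox gene Prrx2, at 144 and 65.3 FPKM in WT and 11.6 and 20.8 in Asxl1-/-, Nt5e and Twist1. Macrophage and leukocyte markers differed between libraries within both groups: the 16 genes summed to 7.63 and 570 FPKM in WT replicates 1 and 2 and to 86.9 and 388 FPKM in Asxl1-/- replicates 1 and 2, and 72.2 of the 86.9 came from Fcer1g. The defining genes Ptprc, Emr1 and Itgam stood at 0.00740 to 0.0412 FPKM in both replicates 1 and at 1.16 to 6.26 in both replicates 2. Of the 16 genes, 3 reached 1 FPKM in WT replicate 1, 4 in Asxl1-/- replicate 1 and 15 in each replicate 2. Cd53, like Fcer1g, did not follow this split, at 0.117 and 3.43 FPKM in WT and 5.82 and 8.37 in Asxl1-/-. The part of these markers in the results was not tested.

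The cells expressed Sox9 and Matn2 in all 4 libraries, while aggrecan and the link protein were at or near 0 in every library. Of the 10 genes, 6 stayed under 1 FPKM in all 4 libraries. In each library 2 or 3 of the 10 reached 1 FPKM. Matn2 alone made up 46.8% and 74.7% of the summed FPKM of the 10 genes in the WT libraries and 77.6% and 88.5% in the Asxl1-/- libraries. The name cartilage genes thus describes the list, since most of its members were hardly expressed in these cultures. The cartilage-defining collagen Col2a1 stood at 0.546 and 0.0163 FPKM in WT and at 0.0936 and 0.0588 in Asxl1-/-.

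**Figure D1:**
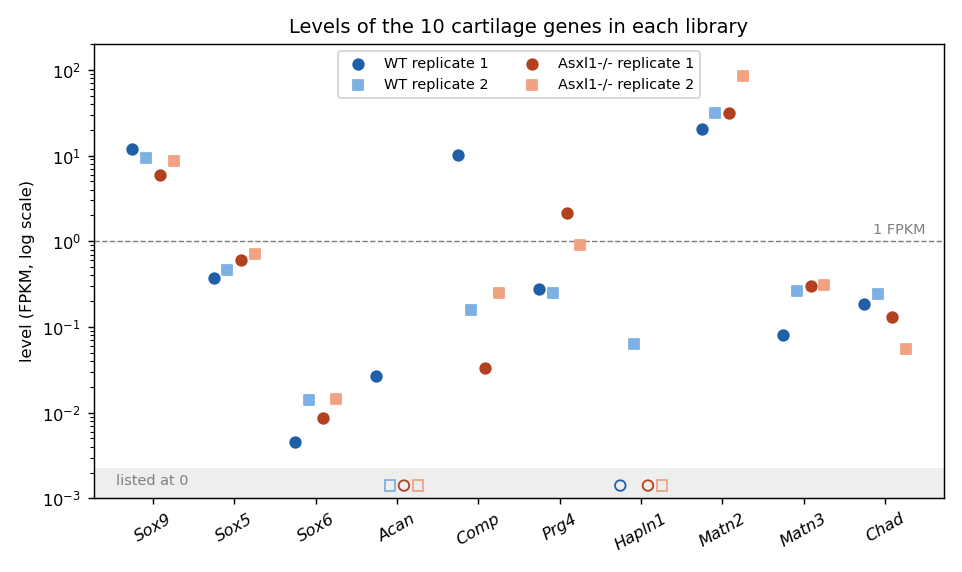
FPKM of each of the 10 genes (y axis, log scale) in the 4 libraries; filled points are measured levels, and open points in the grey band are values listed at 0. Sox9 and Matn2 lie above the dashed line at 1 FPKM in every library, Comp does so only in WT replicate 1, and Acan and Hapln1 are listed at 0 in 3 libraries each.

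Sequences upstream of 3 of the silent or low genes are shown because their deposited gene models begin exactly where the RefSeq start lies, and because Hapln1 and Matn3 are among the genes that Sox9 is known to switch on. Each runs 5′ to 3′ over the 250 bases before the RefSeq start (GRCm38.p6, the mm10 assembly). Capitals mark matches to the SOX consensus, a run of 7 bases that is read on both strands as CAAAG or CAATG with a pair of bases before it that are each A or T. Matches were allowed to overlap, and none overlapped in the windows shown. The Hapln1 window lies at chr13:89540386-89540635 on the plus strand, the Matn3 window at chr12:8947679-8947928 on the plus strand and the Sox6 window at chr7:116038745-116038994 on the minus strand.
Hapln1: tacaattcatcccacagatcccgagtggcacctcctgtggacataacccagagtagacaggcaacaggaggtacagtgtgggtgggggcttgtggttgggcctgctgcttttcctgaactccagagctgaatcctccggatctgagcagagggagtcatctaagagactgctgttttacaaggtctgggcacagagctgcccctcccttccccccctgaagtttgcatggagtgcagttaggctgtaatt
Matn3: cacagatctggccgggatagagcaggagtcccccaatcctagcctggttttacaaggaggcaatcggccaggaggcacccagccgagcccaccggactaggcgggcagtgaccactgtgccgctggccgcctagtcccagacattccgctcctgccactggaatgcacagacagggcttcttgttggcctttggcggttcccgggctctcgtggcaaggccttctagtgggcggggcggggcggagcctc
Sox6: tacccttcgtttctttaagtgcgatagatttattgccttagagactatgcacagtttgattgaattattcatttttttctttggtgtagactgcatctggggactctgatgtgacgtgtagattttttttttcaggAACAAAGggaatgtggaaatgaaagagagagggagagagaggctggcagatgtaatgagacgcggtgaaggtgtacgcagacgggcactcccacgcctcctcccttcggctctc
The Sox6 window held 1 match, AACAAAG, and the Hapln1 and Matn3 windows held none. RefSeq windows were matched for 6 of the 10 genes, 11 windows in all, and 6 of the 11 held the motif. All 6 belonged to Sox6, which has 6 listed starts, and the windows of Acan, Chad and Sox5 held none. Over all 32851 windows of this length the share with a match was 21.8%. A match describes letters in the window and no binding, and a window without one says nothing of the factor.

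Sox9, on chromosome 11 (112782210 to 112787757, plus strand), was the most abundant of the 3 SOX regulators. It stood at 11.9 and 9.25 FPKM in WT replicates 1 and 2 and at 5.96 and 8.61 FPKM in Asxl1-/- replicates 1 and 2. The 2 Asxl1-/- values were both under the 2 WT values, with 8.61 close under 9.25. WT cells averaged 10.6 ± 1.90 FPKM and Asxl1-/- cells 7.29 ± 1.87 FPKM (SD, n = 2 each). On log2(FPKM + 1) the fold change, Asxl1-/- minus WT, came to -0.49, with 0.29 as its standard error and a 95% interval of -1.25 to 0.27 (limma adjusted p = 0.697), so the difference was not larger than the spread between replicates allows to call. For scale, the gap between the Asxl1-/- libraries was 0.47 on the same scale and that between the WT libraries 0.34. Leaving out Asxl1-/- replicate 1 gave -0.26. In the authors' deposited table the log2 fold change of Sox9 was -0.42 with a q of 0.999.

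Sox5 (chromosome 6, 143828425 to 144209568, minus strand), which has no activation domain of its own and works as a partner of Sox9, stood at 0.372 and 0.459 FPKM in WT and at 0.610 and 0.703 in Asxl1-/-. The Asxl1-/- values both exceeded the WT values, and all 4 values were under 1 FPKM. Its mean did not reach the minimum of 1 FPKM for testing. With no filter the log2 difference was 0.23 (limma adjusted p = 0.713). The authors' deposited table puts the log2 fold change of Sox5 at 0.77, with a q of 0.999. Sox9 was 32.1 and 20.2 times as high as Sox5 in the WT libraries and 9.78 and 12.3 times as high in the Asxl1-/- libraries. This ratio was lower in both Asxl1-/- libraries than in both WT libraries. That follows from the separate values of Sox9 and of Sox5 already given, so it is no further observation. With 2 against 2 an exact two-sided permutation test cannot go below p = 0.333, and none was run.

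Sox6 (chromosome 7, 115470872 to 116038744, minus strand), the closest relative of Sox5, was barely detected. It stood at 0.00461 and 0.0140 FPKM in WT and at 0.00870 and 0.0145 in Asxl1-/-, and the groups overlapped. After the relative depths were taken into account these values stood in the ratio of 1 to 3 to 2 to 3 within 3%, which is how single reads would appear. No difference in Sox6 was detectable at this depth. Of 7 related SOX genes 3 were tested. Sox4, a widely expressed family member, stood at 46.8 and 19.8 FPKM in WT and at 30.5 and 43.7 in Asxl1-/-. Sox12 stood at 17 and 3.77 FPKM in WT and at 6.70 and 3.72 in Asxl1-/-, and Sox13, of the same subgroup as Sox5 and Sox6, at 0.297 and 1.56 against 2.44 and 1.41. The groups overlapped for each of these 3, and limma adjusted p ran from 0.764 to 0.907. Among the 4 that were not tested, Sox11 stood at 1.98 and 0.573 FPKM in WT and at 0.227 and 0.187 in Asxl1-/-, without overlap. Sox8 was at most 0.0397 FPKM, Sox10 was listed at 0 in 3 libraries and Sox2 in all 4.

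Acan and Hapln1, the core of the aggrecan and hyaluronan network of cartilage, gave next to no signal. Acan (chromosome 7, 79053483 to 79115099, plus strand) had 0.0265 FPKM in WT replicate 1, and the other 3 libraries list it at 0. Hapln1 (chromosome 13, 89540636 to 89611832, plus strand) had 0.0635 FPKM in WT replicate 2, and the others list it at 0. Neither was tested in the authors' deposited table. A related proteoglycan that also binds hyaluronan, Vcan (versican), was abundant, at 162 and 111 FPKM in WT and 181 and 49.9 in Asxl1-/-, and its groups overlapped.

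The matrilins, adaptor proteins that link matrix fibres, split into one abundant and one scarce gene. Matn2 (chromosome 15, 34306681 to 34436240, plus strand), a matrilin found in many connective tissues besides cartilage, stood at 20.3 and 31.65 FPKM in WT and at 31.71 and 83.6 in Asxl1-/-. The groups did not overlap, but WT replicate 2 and Asxl1-/- replicate 1 were almost level, and Asxl1-/- replicate 2 stood apart from the other 3. WT cells averaged 26.0 ± 8.02 FPKM and Asxl1-/- cells 57.6 ± 36.7 FPKM (SD, n = 2 each). Matn2 had a log2 fold change of 0.995, a standard error of 0.54 and a 95% interval of -0.43 to 2.42 (limma adjusted p = 0.678). It was 0.31 without Asxl1-/- replicate 2 and 1.68 without Asxl1-/- replicate 1. The gap between the Asxl1-/- libraries, 1.37 on the log2 scale, was wider than that of 92.9% of tested genes. The authors' deposited table lists Matn2 at 30.3 FPKM in WT and 72.4 in Asxl1-/-, with a p of 0.0101 and a q of 0.311, and does not mark it significant. The antisense gene 9430069I07Rik, which overlaps Matn2, was listed at 0 in 3 libraries and at 0.114 FPKM in WT replicate 2.

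Matn3 (chromosome 12, 8947929 to 8972028, plus strand) stood at 0.0814 and 0.262 FPKM in WT and at 0.303 and 0.312 in Asxl1-/-. The Asxl1-/- values both exceeded the WT values, WT replicate 2 only just below them. Matn2 was between 105 and 268 times as high as Matn3 in the 4 libraries. With no filter the log2 difference of Matn3 was 0.16 (limma adjusted p = 0.778). Of the other matrilin genes, Matn1, the classic cartilage matrilin, reached 0.0217 FPKM in WT replicate 2, with 0 listed elsewhere. Matn4 stood at 3.63 and 0.611 FPKM in WT and at 0.242 and 0.330 in Asxl1-/- (limma adjusted p = 0.697).

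Comp, the cartilage oligomeric matrix protein, a thrombospondin relative of cartilage and tendon, was a gene of 1 library. Its level (chromosome 8, 70373548 to 70382066, plus strand) was 10.2 FPKM in WT replicate 1, 0.157 FPKM in WT replicate 2, and 0.0334 and 0.252 FPKM in Asxl1-/- replicates 1 and 2. WT replicate 1 was 65.0 times as high as WT replicate 2, and WT replicate 2 lay between the Asxl1-/- libraries. Its log2 fold change came to -1.66, with 1.15 as its standard error and a 95% interval of -4.70 to 1.37 (limma adjusted p = 0.740). Without WT replicate 1 it was -0.025, so the group difference rests on that library. The gap between the WT libraries, 3.28 on the log2 scale, was wider than that of 99.0% of tested genes. The authors' deposited table puts the log2 fold change of Comp at -5.02, with a p of 0.0564 and a q of 0.714, from group values of 5.84 and 0.179 FPKM. WT replicate 1 was also the library with the lowest sum of macrophage markers, 7.63 FPKM. The defining genes Ptprc, Emr1 and Itgam stood at 0.00740 to 0.0412 FPKM in both replicates 1, though Cd53 and Fcer1g stood at 5.82 and 72.2 in Asxl1-/- replicate 1. Of these libraries, Asxl1-/- replicate 1 had the lowest Comp of all, 0.0334 FPKM. The part of macrophage markers in the Comp level was not tested.

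Prg4, which encodes lubricin, the lubricant of joint surfaces, stood at 0.274 and 0.251 FPKM in WT and at 2.12 and 0.907 in Asxl1-/- (chromosome 1, 150449412 to 150466165, minus strand). The Asxl1-/- values both exceeded the WT values, which were close to each other, and the mean over the 4 libraries, 0.888 FPKM, fell short of the minimum for testing. The ratio of the group means was 5.76. With no filter the log2 difference was 0.95 (limma adjusted p = 0.660), and in the authors' deposited table the log2 fold change of Prg4 was 2.64 with a q of 0.958. The opposite-strand gene Tpr overlaps Prg4 and stood at 31.9 to 36.7 FPKM. Whether the counting used strand is not given in the sources used here, so reads of the shared stretch cannot be assigned to one of the pair. Tpr varied little between libraries, and Prg4 was 0.812% and 0.788% of Tpr in WT against 6.17% and 2.47% in Asxl1-/-. The part of Tpr reads in the Prg4 level was not tested.

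Chad, chondroadherin, a leucine-rich repeat protein that binds chondrocytes, stood at 0.186 and 0.243 FPKM in WT and at 0.129 and 0.0556 in Asxl1-/- (chromosome 11, 94565074 to 94569127, plus strand). The 2 Asxl1-/- values were both under the 2 WT values, all at levels under 0.25 FPKM. Acsf2, an acyl-CoA synthetase gene on the opposite strand that overlaps Chad, stood at 15.3 and 13 FPKM in WT and at 7.05 and 2.55 in Asxl1-/-. Chad amounted to 1.22% and 1.88% of Acsf2 in WT and to 1.83% and 2.19% in Asxl1-/-, and these shares overlapped between the groups. Without strand, reads from the pair cannot be told apart. With no filter the log2 difference of Chad was -0.15 (limma adjusted p = 0.696).

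Across the 10 genes the groups did not overlap for 6. Asxl1-/- was above WT for Sox5, Prg4, Matn2 and Matn3 and below it for Sox9 and Chad. Of all 17305 symbols with a value above 0 both Asxl1-/- values exceeded both WT values for 13.1% and were under them for 23.5%. Sox9, Comp and Matn2 passed the filter of a mean of at least 1 FPKM, and 0 of these 3 passed the limma adjusted threshold of 0.05 or an unadjusted p under 0.05. Of all 11481 genes tested 0.0261% passed the adjusted threshold and 7.92% had an unadjusted p under 0.05. Their median log2 fold change was -0.49, against -0.07 over all genes tested; it rests on 3 genes, 1 positive and 2 negative (43.2% and 56.8% of all genes tested). It was 0.25 at a mean of at least 5 FPKM, where Sox9 and Matn2 remain, -0.0078 over all 10 genes with no filter and -0.025 without WT replicate 1, so it gives no direction. The authors' deposited table tested 5 of the 10 genes (Sox9, Sox5, Comp, Prg4 and Matn2) and marks 0 of them significant, against 0.939% of all genes it tested; at an unadjusted p under 0.05 it has 1, Matn2, against 7.34%.

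**Figure D2:**
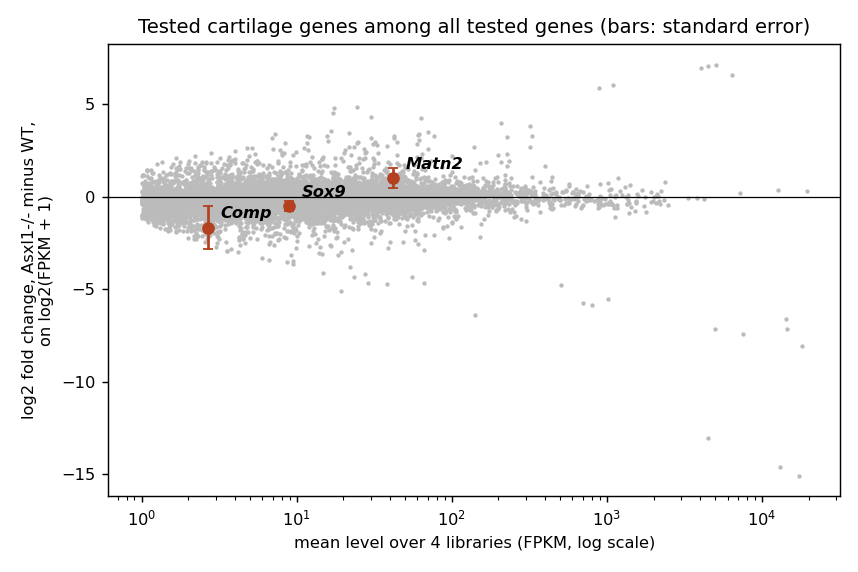
Log2 fold change on log2(FPKM + 1), Asxl1-/- minus WT (y axis), against the mean FPKM of the 4 libraries (x axis, log scale) for the 11481 genes tested with limma (grey) and the 3 tested cartilage genes (red, bars of 1 standard error). Matn2 lies at 0.995, Sox9 at -0.49 and Comp at -1.66; in size the fold change of Comp exceeds that of 97.1% of all tested genes, that of Matn2 90.2% and that of Sox9 70.1%.

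The wider cartilage programme was read from 7 further lists with 125 genes in the table, 77 of them tested. None passed the limma adjusted threshold. At an unadjusted limma p under 0.05, 3 were higher and 8 lower, together 14.3%. Of all genes tested 2.51% were higher and 5.41% lower at that p, together 7.92%. Col10a1, Adamts15 and Mmp9, which are part of the 14.3%, passed the filter only through the group where they stood high. The WT and Asxl1-/- values were fully separate for 15 higher genes (19.5%, against 15.6% of all tested) and 20 lower genes (26.0%, against 25.2%). The authors' deposited table tested 87 of the 125 and marks 2 significant (2.30%, against 0.939% of all genes it tested), Col11a1 with a log2 fold change of -3.06 and Grem1, a BMP antagonist, with 2.26, both at a q of 0.00836. At an unadjusted p under 0.05 it has 18 of the 87 (20.7%, against 7.34%). In the FPKM table Grem1 stood at 22.9 and 40.2 FPKM in WT and at 37.6 and 244 in Asxl1-/-, so its groups overlapped. The lists were chosen with earlier results of these data known, so these shares describe the lists and are no test of them. The genes named next have the smallest p of their list and are given as values.

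Among the other regulators, 3 of 13 tested genes had a positive and 10 a negative fold change, with a median of -0.28. Shox2, a homeobox gene of limb cartilage, stood at 19.6 and 17.6 FPKM in WT and at 5.38 and 5.16 in Asxl1-/-, and Runx2, which drives chondrocyte hypertrophy and bone formation, at 13.6 and 17.6 against 5.73 and 7.32. Their log2 fold changes were -1.64 and -1.14, with standard errors of 0.22 and 0.26 and limma adjusted p of 0.398 and 0.516. Replicates of both genes lay close together, unlike those of Comp. Trps1, a repressor active in growth plates, stood at 14.8 and 5.04 FPKM in WT and at 2.10 and 4.71 in Asxl1-/-. Arid5b, which works with Sox9 on cartilage genes, went the other way, at 18.7 and 25 against 27.0 and 47.0.

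Signalling genes had a median of -0.21 over 15 tested, 5 positive and 10 negative. Tgfb2, a TGF-beta ligand, stood at 14.8 and 9.75 FPKM in WT and at 7.10 and 4.55 in Asxl1-/-. Gli3, a Hedgehog pathway transcription factor, stood at 8.67 and 6.45 against 3.71 and 4.46, and Chrd, a BMP antagonist, at 0.597 and 1.73 against 2.29 and 4.60. Ctgf, a matricellular growth factor gene of cartilage and fibrosis, ran from 32.5 to 198 FPKM in WT and from 179 to 533 in Asxl1-/-, with overlap. Limma adjusted p ran from 0.613 to 0.671 for these 4. The ligand Ihh and the hormone gene Pthlh, which pace the growth plate, stayed under 0.1 FPKM in every library.

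The cartilage collagens did not go one way: of the 4 tested genes 2 had a positive and 2 a negative fold change. The Asxl1-/- values were above both WT values for the first 2 (15.6% of all tested genes) and under them for the others (25.2%), and limma adjusted p ran from 0.552 to 0.697. Col10a1, the collagen of hypertrophic chondrocytes, stood at 0.508 and 0.146 FPKM in WT and at 5.11 and 2.19 in Asxl1-/- (log2 fold change 1.75, standard error 0.48, limma adjusted p = 0.552). Col11a2 stood at 0.667 and 1.15 against 3.06 and 1.48. Col11a1, a collagen of cartilage fibrils, stood at 53.7 and 13.2 FPKM in WT and at 0.177 and 7.07 in Asxl1-/-, and Col27a1 at 4.44 and 5.05 against 0.816 and 2.82. The collagens that wrap or build the main cartilage fibril, Col2a1, Col9a1, Col9a2 and Col9a3, stayed under 1 FPKM in all libraries.

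Other matrix genes had a median of -0.82 over 10 tested, with 2 positive and 8 negative, and 15 of the 26 in the table stayed under 1 FPKM in every library. The stromal markers had a median of -0.76, and their part in this value was not tested. The leucine-rich proteoglycan gene Ogn stood at 538 and 314 FPKM in WT and at 205 and 138 in Asxl1-/- (log2 fold change -1.28, standard error 0.39, limma adjusted p = 0.566). Mgp, an inhibitor of cartilage calcification, stood at 3191 and 1505 against 1394 and 1094. The hyaluronan receptor gene Cd44 stood at 61.8 and 95.9 against 54.3 and 34.4, and Thbs1, a relative of Comp, went the other way, at 504 and 1124 against 1817 and 1294.

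Genes for the sugar chains of proteoglycans, listed together with the hyaluronan synthases, were expressed broadly, 19 of 24 passing the filter. Their median was -0.03, with 9 positive and 10 negative. Has2, a hyaluronan synthase, stood at 10.0 and 13.4 FPKM in WT and at 0.886 and 3.59 in Asxl1-/-. Papss2, which makes the sulphate donor for cartilage proteoglycans, stood at 5.78 and 6.50 against 11.1 and 14.4, and B3gat3, an enzyme of the linkage region, at 15.5 and 12.7 against 20.4 and 21.8. Chst12, a chondroitin sulphotransferase, stood at 39.1 and 28.3 against 21.4 and 23.7. The cells thus carried RNA for the chain-building enzymes while aggrecan itself was at or near 0.

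Proteases of the cartilage matrix and their inhibitor had a median of 0.32 over 13 tested, 9 positive and 4 negative. The aggrecan-cleaving Adamts15 stood at 1.29 FPKM in WT replicate 1, was listed at 0 in WT replicate 2, and stood at 3.63 and 7.92 in Asxl1-/-. Timp3, an inhibitor of aggrecanases, stood at 58.1 and 170 FPKM in WT and at 465 and 218 in Asxl1-/-, and the membrane protease Mmp14 at 219 and 250 against 356 and 293. Mmp9, a gelatinase also made by macrophages, stood at 3.72 and 0.990 against 0.0498 and 0.0805. The main aggrecanases did not follow the genotype: Adamts4 ranged from 7.42 to 9.48 FPKM over the 4 libraries, and Adamts5 stood at 19.2 and 37.8 FPKM in WT and at 24 and 65.2 in Asxl1-/-. Limma adjusted p for the genes of these last lists named by p lay between 0.520 and 0.686.

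**Figure D3:**
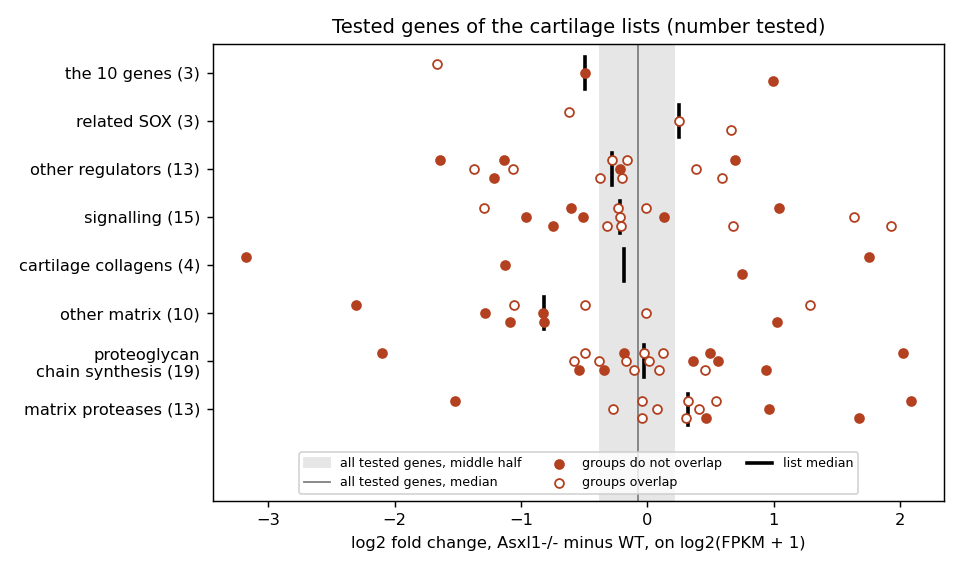
Log2 fold change on log2(FPKM + 1), Asxl1-/- minus WT (x axis), of each tested gene in the 8 cartilage lists (rows, number tested in brackets); filled points are genes whose groups do not overlap, open points overlap, and black bars are list medians. The grey band spans the 25th to 75th percentile of all tested genes and the grey line is their median, -0.07; list medians run from -0.82 for other matrix genes to 0.32 for proteases.

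In these bulk samples fewer cells of a type and less RNA per cell cannot be told apart. The summed level of the 10 genes was 43.4 and 42.4 FPKM in WT and 40.9 and 94.4 in Asxl1-/-, the last carried by Matn2. The cartilage collagens summed to 60.1 and 19.8 FPKM in WT and to 10.1 and 13.9 in Asxl1-/-, the first carried by Col11a1. Endothelial markers summed to 1.81 and 0.673 FPKM in WT and to 0.302 and 9.75 in Asxl1-/-, with Cdh5 at 7.11 in the last and at most 0.0100 elsewhere, while Pecam1 was at most 0.0608 in every library.

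**Figure D4:**
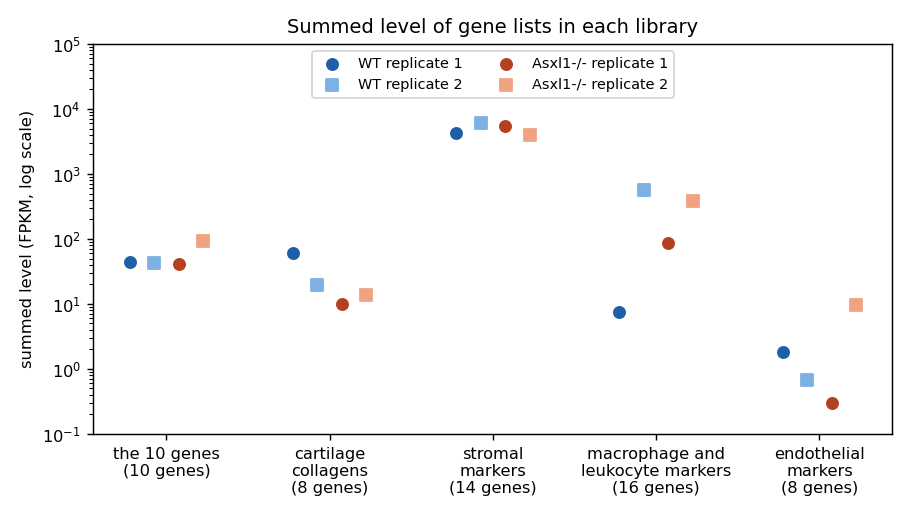
Summed FPKM (y axis, log scale) of 5 gene lists in each of the 4 libraries. Stromal markers lie between 3979 and 5983 FPKM in all libraries, the 10 cartilage genes between 40.9 and 94.4, and macrophage markers range from 7.63 in WT replicate 1 to 570 in WT replicate 2. Much of the stromal sum is Col1a1 (1298 to 2043 FPKM) and Col1a2 (1049 to 2284). Single stromal markers vary more, such as Pdgfra (4.78 to 80.9) and Ly6a (70.0 to 1059).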

How the data were processed

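RNA was sequenced in 2 WT and 2 Asxl1-/- MSPC libraries. Per the submitters' processing notes, the tools were Cufflinks 2.2.1, Cuffdiff and TopHat2 2.0.3, and the build was mm10. The authors deposited an FPKM table of 24487 rows and a Cuffdiff table with group FPKM, log2 fold changes, p-values and q-values. Starts were printed with 1 added, and gene models were compared with GENCODE M21. Another 2 library columns of the FPKM table, which no sample's label names, were not used.

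For each symbol the row with the highest mean was kept. Genes averaging 1 FPKM or more were tested with limma (version 3.58.1, R 4.3.3; eBayes with trend) on log2(FPKM + 1), a scale that understates the change of low genes, with Benjamini-Hochberg adjustment at 0.05 over all genes. The code of the fit was tried on simulated data with preset spreads. Those spreads were not taken from these libraries, so the trial does not measure the power of the fit here. Relative depth came from ratios of values between 0.003 and 0.1 FPKM. Replicates were numbered in accession order and pair no samples. All 10 genes are named, and up to 4 tested genes with the smallest p per further list; genes named beyond these (such as Vcan, Matn1, Matn4, Col2a1, Ihh, Adamts4 and Adamts5) were chosen after their values were seen. The genes and lists were chosen with earlier results of these data known. Alternatives were pseudocounts, filters, scalings, variance models, gene length and each library left out. Promoters are from RefSeq. Python 3.11.15 (pandas 2.3.3, numpy 2.4.6, matplotlib 3.10.9) made tables and figures.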

Additional observations from a re-analysis of the deposited data

How the results depend on the processing

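Sox9, Comp and Matn2 kept their direction and stayed above the adjusted threshold of limma under every alternative that could be fitted, with adjusted p from 0.417 to 0.998. With all 4 libraries their log2 fold changes lay from -0.55 to -0.39 for Sox9, from -2.91 to -1.53 for Comp and from 0.995 to 1.08 for Matn2. With 1 library left out it ran from -0.73 to -0.26, from -3.30 to -0.025 and from 0.31 to 1.68. Where a group was left with 1 library, that library was assumed to vary like the other group. Comp has no value at a mean of at least 5 FPKM. The median of the 3 genes ran from -0.73 to -0.025 with 1 library left out; it was 0.25 at a mean of at least 5 FPKM, where 2 genes remain, and -0.0078 with no filter, where all 10 enter.

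Of all genes, 0 were higher and 3 lower at the adjusted threshold. With 1 library left out 0 to 4 were higher and 1 to 6 lower; with no filter 1 was lower, and without rows under 300 bp 0 were. At an unadjusted p under 0.05 limma had 288 higher and 621 lower with all 4 libraries, against 404 and 530 after median ratio scaling, which moved the median of all genes from -0.073 to 0.0069. Summing the rows of a symbol left the median of the 3 tested genes at -0.49, since each of the 10 genes has 1 row. No paired analysis was possible because the labels give no replicate numbers. Depth in reads is unknown, so no limit can be given for the values listed at 0 of Acan and Hapln1.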

Other observations

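Comp was not alone in standing high in WT replicate 1. Of the 80 tested genes of the 10 cartilage genes and the 7 further lists, 6 were at least 4 times as high in WT replicate 1 as in each other library, 7.5% against 0.81% of all genes tested; this rule was chosen after the values were seen. They were Comp, the tendon and ligament regulator Scx (6.49 and 0.808 FPKM in WT, 0.0813 and 0.876 in Asxl1-/-), the Hedgehog receptor gene Ptch1 (16.7 and 2.74 against 1.60 and 3.26), Col11a1 (53.7 and 13.2 against 0.177 and 7.07), Matn4 (3.63 and 0.611 against 0.242 and 0.330) and the matrix gene Vit (4.16 FPKM in WT replicate 1, listed at 0 in WT replicate 2 and Asxl1-/- replicate 1, and 0.190 in Asxl1-/- replicate 2). The same rule gave 1 gene in WT replicate 2 (Runx3), 0 in Asxl1-/- replicate 1 and 2 in Asxl1-/- replicate 2 (Grem1 and Prelp). A gene that is high in 1 library enters the test on the strength of that library. Comp, Scx, Matn4 and Vit stood under 1 FPKM in every other library, so they passed the filter only through WT replicate 1. The shares given by this rule therefore describe these genes and are no support for a trait of that library.

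A pair of protease genes of cartilage breakdown differed widely between libraries of the same genotype. The collagenase gene Mmp13 stood at 0.633 and 115 FPKM in WT and at 84.6 and 2.89 in Asxl1-/-, and Mmp3, the stromelysin gene, at 1.59 and 15.2 against 24.8 and 0.529. Both were highest in WT replicate 2 and Asxl1-/- replicate 1. Both genes were picked after their values were seen. In limma the log2 fold change was 0.41 for Mmp13 (adjusted p = 0.978) and -0.043 for Mmp3 (adjusted p = 0.996). The spread between libraries of a group was not tested.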
